A study of Mus musculus with 6 samples.

Results

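The genes of cholesterol synthesis and of its control by the transcription factor SREBP2 were compared between mouse embryonic stem cells with and without the deacetylase Sirt1. A set of 27 genes was defined by name, in the order in which their products act, and a gene was measured where its symbol stood alone against a probe set of the array. This gave 26 of the 27 genes, out of 18193 genes with a symbol, and Acat2 had no row under that symbol and was not analysed here. The cells were of the R1 line, a widely used mouse line of strain (129X1 x 129S1)F1, in 2 genotypes: Sirt1+/+ (wild type, 3 arrays) and Sirt1-/- (knockout, 3 arrays). Both genotypes were kept on gelatin (0.1%) in high-glucose medium with serum (15% FBS) and leukaemia inhibitory factor (LIF, 100 IU/ml), which holds stem cells undifferentiated. Each array measured 1 RNA sample, and levels are given as log2 RMA values, on which a difference of 1 is a 2-fold change. The labels name a single source per genotype and do not say whether the samples were grown as separate cultures. Loss of Sirt1 and any other difference between these sources cannot be told apart, and the p-values reflect only how these samples vary, which may be technical.

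Cholesterol is built from acetyl-CoA. The mevalonate pathway makes isoprenoid units, these are joined to squalene, squalene is closed to the ring of lanosterol, and a series of demethylations and reductions leads to cholesterol. The pathway is controlled by SREBP proteins, which lie in the endoplasmic reticulum bound to the escort protein Scap. When sterols are low, Scap carries SREBP to the Golgi, where it is cut and its released part enters the nucleus and switches on the enzymes. When sterols are high, Insig proteins hold Scap back. In embryonic cells cholesterol serves membranes and the modification of Hedgehog proteins, while the isoprenoids serve protein prenylation.

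Sirt1 RNA read 10.12, 10.13 and 10.23 in the wild-type arrays and 8.02, 7.94 and 8.20 in the knockout arrays. The groups did not overlap, and the log2 change was -2.11 (limma, Benjamini-Hochberg adjusted p = 3.98e-05; exact two-sided permutation test p = 0.1, the smallest that 3 against 3 arrays allow). Whether this probe set lies in the deleted stretch is not stated in the labels, so the residual signal cannot be placed. Array medians over all probe sets lay between 4.51 and 4.57. Of 10 embryonic stem cell markers, group means lay between 9.67 and 14.44, and in limma 6 were lower in the knockout and none higher (0 at an unadjusted p under 0.05), beside 26.5% called lower among all genes above the median level.

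Most genes of the sterol pathway were higher in the knockout cells. Of the 26 measured, 17 rose, Insig2 fell, and 8 did not pass (limma, Benjamini-Hochberg adjusted p under 0.05 over all genes). Over all genes tested, 12.5% were called higher and 17.5% lower, so the members' shares of 65.4% and 3.85% lay above and below the background. The set was chosen with earlier results of these data known, so this contrast is a description and not independent evidence. Among genes with a mean level above the median of all genes, 21.5% were called higher. The median log2 change of the 26 genes was 0.39, beside -0.01 over all genes. In 19 genes every knockout array read above every wild-type array, and in 3 every knockout array read below, against 19.1% and 24.7% of all genes. No member was dim: all 26 stayed when the dimmest 40% of genes were left out.

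**Figure D1:**
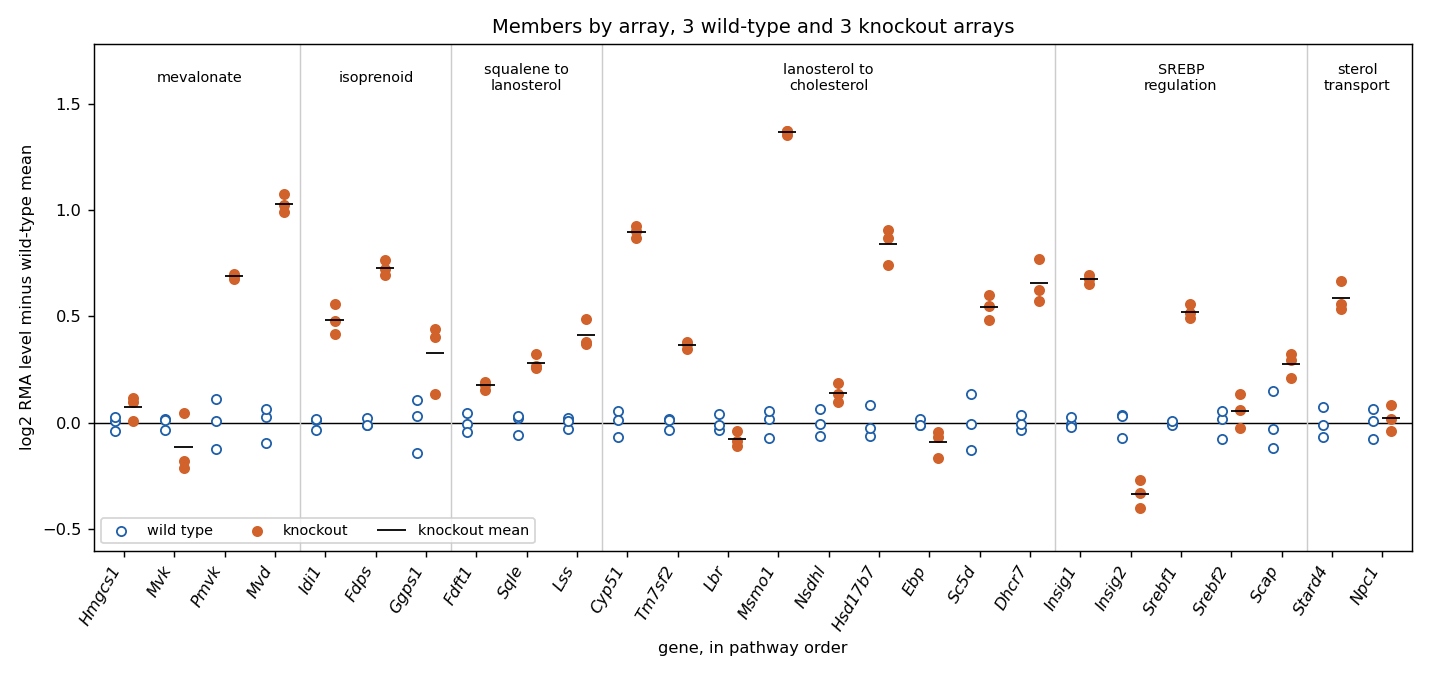
Level of each measured gene on each array, as the log2 RMA level minus the wild-type mean of that gene, in pathway order (open circles, 3 wild-type arrays; filled circles, 3 knockout arrays; bars, knockout mean). The knockout points of Msmo1 and Mvd sit about 1 unit or more above the wild-type points, those of Hmgcs1, Srebf2 and Npc1 mix with them, and those of Insig2 lie below.

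Averaged over the 26 genes, the arrays measured 8.33, 8.32 and 8.35 in the Sirt1+/+ arrays and 8.71, 8.76 and 8.75 in the Sirt1-/- arrays. The difference between genotypes was thus larger than the spread within either, and no array stood apart from its group. Changes were moderate in size. At least a 1.5-fold change in addition to the adjusted p was met by 9 members, all higher, against 2.38% of all genes that were higher and 5.18% that were lower by that rule. The members also varied little within a genotype, with a median within-group SD of 0.05, beside 0.10 over all genes. All members lay above the median level, and no SD was computed for other genes of like level.

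The sequence before the starts of the measured genes was also examined. RefSeq promoter windows (GRCm38.p6, 250 bases before to 50 after the start) were found for 21 of the 26 genes. The 4 enzymes with the largest rises (Msmo1, Mvd, Cyp51 and Hsd17b7), the feedback gene Insig1, and Hmgcs1, whose level did not pass, are shown over the 250 bases that end just before the start, on the strand of the gene. Capitals mark CCAAT on either strand (CCAAT or ATTGG), the box bound by NF-Y, and TCACNCCAC on either strand, a form of the sterol regulatory element bound by SREBP. The windows lie at chr8:64733579-64733828 (minus strand) for Msmo1, chr8:122443423-122443672 (minus) for Mvd and chr5:4104698-4104947 (minus) for Cyp51. Those of the others lie at chr1:169969206-169969455 (minus) for Hsd17b7, chr5:28071162-28071411 (plus) for Insig1 and chr13:119690101-119690350 (plus) for Hmgcs1.
Msmo1: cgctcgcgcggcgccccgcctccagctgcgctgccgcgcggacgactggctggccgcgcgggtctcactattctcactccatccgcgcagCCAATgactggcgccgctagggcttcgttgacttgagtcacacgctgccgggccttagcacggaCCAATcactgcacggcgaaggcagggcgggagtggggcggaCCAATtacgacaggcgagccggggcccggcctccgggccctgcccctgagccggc
Mvd: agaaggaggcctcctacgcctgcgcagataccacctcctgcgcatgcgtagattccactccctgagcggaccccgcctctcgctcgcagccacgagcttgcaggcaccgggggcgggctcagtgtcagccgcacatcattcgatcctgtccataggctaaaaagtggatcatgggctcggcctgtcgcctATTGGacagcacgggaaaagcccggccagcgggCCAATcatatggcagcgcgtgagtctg
Cyp51: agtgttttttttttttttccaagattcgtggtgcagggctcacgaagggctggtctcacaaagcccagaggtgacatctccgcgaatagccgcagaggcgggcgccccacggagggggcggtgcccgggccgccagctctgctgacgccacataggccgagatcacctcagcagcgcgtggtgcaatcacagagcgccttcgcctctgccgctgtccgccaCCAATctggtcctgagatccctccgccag
Hsd17b7: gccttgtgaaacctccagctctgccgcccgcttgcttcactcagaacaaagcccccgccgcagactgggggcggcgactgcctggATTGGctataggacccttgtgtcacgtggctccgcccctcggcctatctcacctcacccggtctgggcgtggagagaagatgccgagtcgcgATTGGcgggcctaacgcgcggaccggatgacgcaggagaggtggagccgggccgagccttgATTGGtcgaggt
Insig1: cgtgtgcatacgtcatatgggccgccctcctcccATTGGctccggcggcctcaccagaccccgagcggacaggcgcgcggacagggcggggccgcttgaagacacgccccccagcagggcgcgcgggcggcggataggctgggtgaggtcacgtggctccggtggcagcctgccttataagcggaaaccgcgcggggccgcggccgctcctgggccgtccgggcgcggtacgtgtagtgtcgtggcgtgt
Hmgcs1: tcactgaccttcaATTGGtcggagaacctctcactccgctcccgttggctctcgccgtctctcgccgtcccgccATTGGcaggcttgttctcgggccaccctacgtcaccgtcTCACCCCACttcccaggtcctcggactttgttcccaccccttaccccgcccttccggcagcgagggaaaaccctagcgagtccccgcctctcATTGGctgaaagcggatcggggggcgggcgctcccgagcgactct

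In these stretches Msmo1 and Hsd17b7 each held 3 CCAAT boxes, Mvd held 2, Cyp51 and Insig1 held 1, and Hmgcs1 held 3 together with the element TCACCCCAC, whose first base is at -137. Over the whole windows, searched on both strands, CCAAT was present for 20 of the 21 genes (95.2%), the exception being Scap. It was present for 41.1% of all 27025 genes in the table and for 44.0% of tested genes above the median level. The share was alike for members called higher (12 of 13) and for the others (8 of 8). A gene counted if any of its windows held the letters, and the 21 genes had 29 windows. Per window, CCAAT was present in 72.4% for the members and 37.4% for all genes. For tested genes above the median level it was 38.35% of windows. GGGCGG, the GC box bound by Sp1, was present for 19 of 21 (90.5%), beside 38.2% of all genes and 73.2% of tested genes above the median level. TCACNCCAC was found in 1 of the 21, Hmgcs1, beside 1.44% of all genes, and the same letters with an A before them, which are a subset of these matches, in 0 of 21 beside 0.27%. Other forms of the sterol regulatory element were not searched, so a window without these letters may still hold one. These are letter matches in a short window and say nothing of binding.

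The mevalonate enzymes were uneven. Hmgcs1, which condenses acetyl units to HMG-CoA at the entry of the pathway and carries the element shown above, measured 10.80, 10.85 and 10.87 in the Sirt1+/+ arrays and 10.85, 10.96 and 10.94 in the Sirt1-/- arrays. The groups overlapped, and the log2 change was 0.08 (95% interval -0.05 to 0.20; limma, Benjamini-Hochberg adjusted p = 0.338). All 5 of its probe sets gave small positive values, from 0.04 to 0.15, and none was called. Mvk, the kinase that acts on mevalonate, read 6.41 ± 0.03 and 6.29 ± 0.14 (SD, n = 3 each; log2 change -0.11, limma adjusted p = 0.338). Its probe sets disagreed: the dimmer one rose by 0.27 (limma over all probe sets, adjusted p = 0.0173). Without knockout replicate 1, the brighter one read -0.20 and passed (limma, adjusted p = 0.0447).

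The last steps of the mevalonate stage rose clearly. Pmvk, the kinase that adds the next phosphate, measured 8.17, 8.04 and 8.28 in the Sirt1+/+ arrays and 8.84, 8.86 and 8.87 in the Sirt1-/- arrays. The knockout arrays were nearly identical and all above the wild type, with a log2 change of 0.69 (SE 0.07; limma, adjusted p = 0.000642). Mvd, the decarboxylase that makes isopentenyl diphosphate, measured 6.94, 7.07 and 7.11 in the Sirt1+/+ arrays and 8.06, 8.03 and 8.11 in the Sirt1-/- arrays. This was a 2.04-fold higher level (log2 change 1.03, SE 0.06; limma, adjusted p = 0.000109), and its other probe set rose by 0.81.

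Among the enzymes that join isoprenoid units, Idi1, the isomerase, rose from 8.95 ± 0.03 to 9.43 ± 0.07 (SD, n = 3 each; limma, adjusted p = 0.00102). Fdps, the farnesyl diphosphate synthase at the branch to sterols and prenylation, measured 9.40, 9.43 and 9.40 in the Sirt1+/+ arrays and 10.18, 10.11 and 10.13 in the Sirt1-/- arrays. The arrays of each genotype lay close together and far from the other genotype, and the log2 change was 0.73 (SE 0.05; limma, adjusted p = 0.000137). Ggps1, which makes geranylgeranyl diphosphate for prenylation and leaves the sterol route, measured 6.88, 6.70 and 6.95 in the Sirt1+/+ arrays and 6.98, 7.29 and 7.25 in the Sirt1-/- arrays. The groups just failed to overlap and the change of 0.33 did not pass (limma, adjusted p = 0.0574). Without knockout replicate 1, the lowest of its group, the change was 0.42 and passed (limma, adjusted p = 0.0203). It also passed with quantile normalisation repeated (0.0179), without the dimmest 40% of genes (0.0291) and with an intensity trend and robust variances (0.00885, limma adjusted p in each case). Of its 4 probe sets, 1 was called higher and another as bright read 0.01.

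The steps from farnesyl diphosphate to lanosterol all rose, by small amounts. Fdft1, the squalene synthase, went from 9.89 ± 0.04 to 10.07 ± 0.02 (SD, n = 3 each), with a rise of 0.18 that was close to the threshold (limma, adjusted p = 0.0307). That call was lost without wild-type replicate 1 or 2 or any of the 3 knockout replicates (limma, adjusted p 0.0582 to 0.0949). Sqle, the squalene epoxidase and a rate-limiting oxygenase, measured 8.85, 8.85 and 8.77 in the Sirt1+/+ arrays and 9.14, 9.08 and 9.09 in the Sirt1-/- arrays. Its rise of 0.28 passed without overlap (SE 0.05; limma, adjusted p = 0.00620). Lss, the cyclase that closes the ring, measured 7.65 ± 0.03 and 8.06 ± 0.06 (SD, n = 3 each) and rose by 0.41 (limma, adjusted p = 0.00165), and all 3 of its probe sets were called higher.

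From lanosterol to cholesterol, 6 of 9 enzymes rose, and the largest change of the whole set, that of Msmo1, lay here. Msmo1, the oxidase that starts the removal of the methyl groups left on the ring, measured 9.07, 8.98 and 9.11 in the Sirt1+/+ arrays and 10.42, 10.41 and 10.42 in the Sirt1-/- arrays. The knockout arrays nearly coincided (SD 0.01, n = 3), and the level was 2.58-fold higher (log2 change 1.37, SE 0.05; limma, adjusted p = 3.98e-05). Cyp51, the cytochrome oxygenase that removes the first methyl group of lanosterol, measured 8.29, 8.17 and 8.25 in the Sirt1+/+ arrays and 9.10, 9.16 and 9.13 in the Sirt1-/- arrays. Its log2 change was 0.90 (SE 0.05), 1.86-fold, and a further probe set rose by 0.55 (limma over all probe sets, adjusted p = 0.00776).

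Hsd17b7, the ketoreductase that acts beside Msmo1, measured 6.39, 6.43 and 6.53 in the Sirt1+/+ arrays and 7.19, 7.36 and 7.32 in the Sirt1-/- arrays. Its 4 probe sets all rose, by 0.63 to 0.84 (limma, adjusted p = 0.000294 for the brightest). Nsdhl, the dehydrogenase of the same demethylating group, read 8.09 ± 0.06 and 8.23 ± 0.04 (SD, n = 3 each), and its difference of 0.14 did not pass (95% interval 0.01 to 0.27; limma, adjusted p = 0.103). It passed without the dimmest 40% of genes (limma, adjusted p = 0.0424) and with the trend and robust variances (0.0468). The group was therefore uneven, with strong rises beside a gene whose interval reached no higher than 0.27.

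The reductases and the isomerase also differed. Tm7sf2, a sterol reductase, rose by 0.37 (limma, adjusted p = 0.00135), from 7.33 ± 0.03 to 7.69 ± 0.02 (SD, n = 3 each). Lbr, the lamin B receptor, which has the same reductase activity, read 11.93 ± 0.04 and 11.86 ± 0.04 (SD, n = 3 each; log2 change -0.08, limma, adjusted p = 0.301). Ebp, the sterol isomerase, read 8.92 ± 0.02 and 8.83 ± 0.06 (SD, n = 3 each), a change of -0.09 that did not pass (limma, adjusted p = 0.247). In these last 2 genes every knockout array lay below every wild-type array, by margins too small to pass.

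The final desaturase and reductase of the route both rose. Sc5d, the sterol desaturase, went from 7.25 ± 0.13 to 7.79 ± 0.06 (SD, n = 3 each), and its rise was 0.55 (SE 0.08; limma, adjusted p = 0.00267). Dhcr7, the reductase whose loss causes Smith-Lemli-Opitz syndrome, measured 7.78, 7.81 and 7.85 in the Sirt1+/+ arrays and 8.38, 8.43 and 8.58 in the Sirt1-/- arrays. All its knockout arrays were above the wild type, and the change was 0.66 (SE 0.06; limma, adjusted p = 0.000633).

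**Figure D2:**
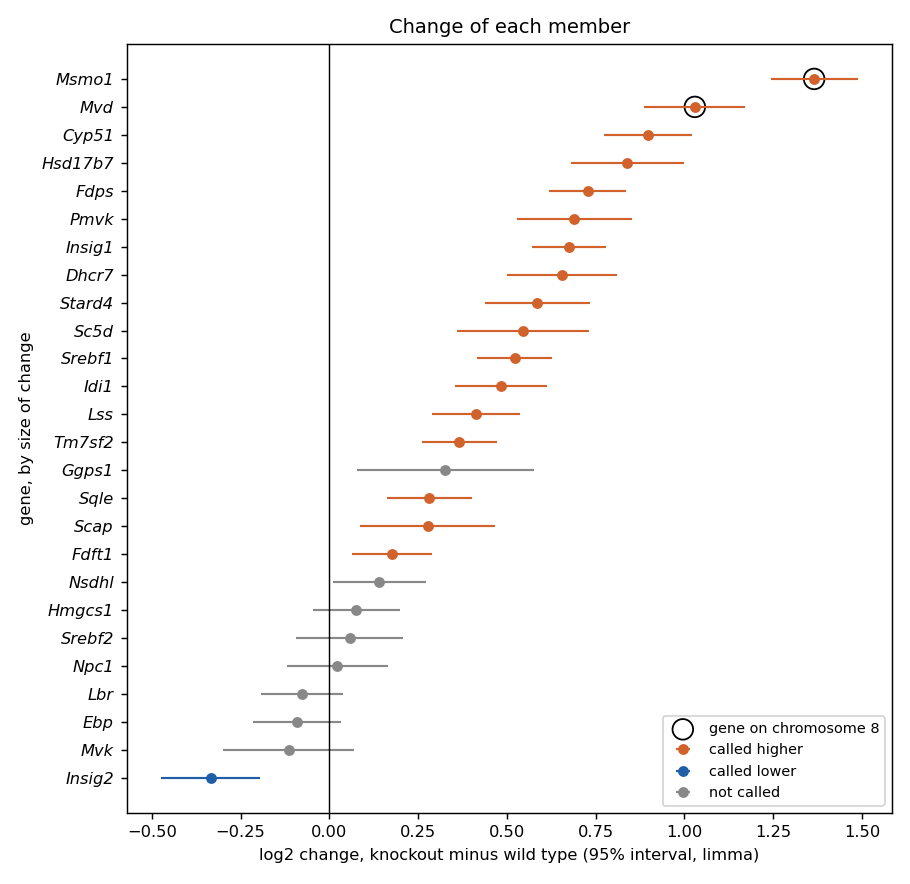
Log2 change (knockout minus wild type) of the 26 measured genes, ordered by size, with the 95% interval from limma (n = 3 arrays per genotype). Changes run from -0.33 for Insig2 to 1.37 for Msmo1, and the rings mark Msmo1 and Mvd, the members on chromosome 8.

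The regulators changed in different directions. Insig1, itself a classic SREBP target that feeds back on Scap, measured 8.41, 8.39 and 8.44 in the Sirt1+/+ arrays and 9.07, 9.11 and 9.09 in the Sirt1-/- arrays. The knockout arrays were tightly grouped above the wild type, and the rise was 0.67 (SE 0.04; limma, adjusted p = 0.000152). Insig2, which does the same work but is not driven by SREBP in this way, measured 8.59, 8.59 and 8.49 in the Sirt1+/+ arrays and 8.15, 8.29 and 8.23 in the Sirt1-/- arrays. It fell by 0.33 (SE 0.06; limma, adjusted p = 0.00592) with no overlap. Its other probe sets read -0.05 and -0.15 and were not called, and with its probe sets averaged the call was lost (log2 change -0.18; limma, adjusted p = 0.0683).

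Srebf2, which encodes the SREBP that governs sterol genes, measured 8.36, 8.27 and 8.40 in the Sirt1+/+ arrays and 8.32, 8.40 and 8.48 in the Sirt1-/- arrays. The arrays overlapped, and the difference was 0.06 (95% interval -0.09 to 0.21; limma, adjusted p = 0.575), with 0.08 on its other probe set. Srebf1, which encodes the SREBP better known for fatty acid genes, measured 8.90, 8.89 and 8.90 in the Sirt1+/+ arrays and 9.39, 9.41 and 9.45 in the Sirt1-/- arrays. Its rise of 0.52 passed (SE 0.04; limma, adjusted p = 0.000380), so the 2 SREBP genes were called differently, and the difference between them was not tested. Scap, the escort of both SREBP proteins, went from 7.76 ± 0.14 to 8.04 ± 0.06 (SD, n = 3 each) and rose by 0.28 (limma, adjusted p = 0.0396), close to the threshold. The Scap call was lost without wild-type replicate 1 or 3 or any of the 3 knockout replicates (limma, adjusted p 0.0569 to 0.118).

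The 2 transport genes also parted. Stard4, a cytosolic sterol carrier that SREBP2 induces, measured 8.01, 8.09 and 7.95 in the Sirt1+/+ arrays and 8.58, 8.55 and 8.69 in the Sirt1-/- arrays. It rose by 0.59 (SE 0.06; limma, adjusted p = 0.000804), and its other probe sets rose by 0.56 and 0.68. Npc1, which exports cholesterol from lysosomes, read 7.66 ± 0.07 and 7.68 ± 0.06 (SD, n = 3 each), and the difference of 0.02 did not pass (95% interval -0.12 to 0.16; limma, adjusted p = 0.836).

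The second and further probe sets, which the choice of the brightest had left aside, mostly ran the same way. The 26 genes had 56 probe sets in all, of which 30 were called higher, 1 lower and 25 not (limma over all probe sets with 1 symbol, of which 11.6% were called higher and 13.0% lower). Of the 30 probe sets that were not the brightest of their gene, 14 were called higher, 0 lower and 16 not. Of the 16 genes with several probe sets, 15 had all of them on the same side of 0, and Mvk was the exception. For Fdps and Cyp51 a much dimmer probe set read 0.05 and 0.01 and was not called.

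**Figure D3:**
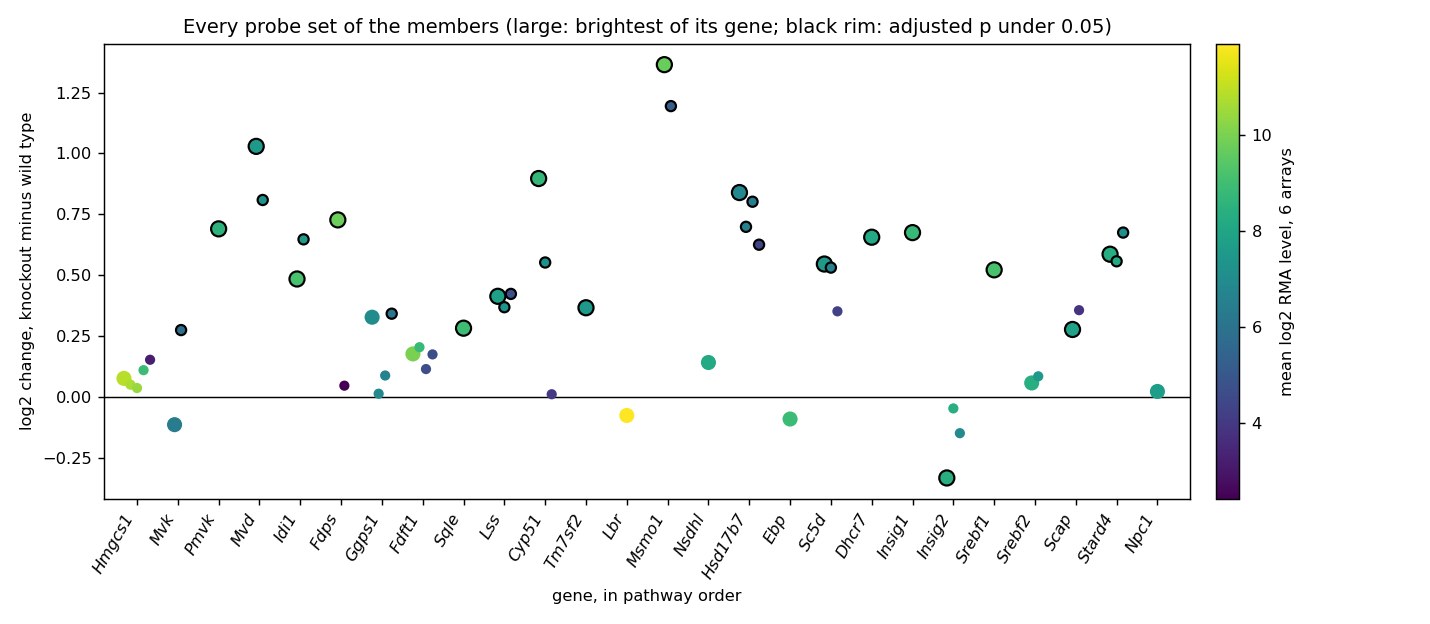
Log2 change (knockout minus wild type) of all 56 probe sets of the 26 genes in pathway order, coloured by mean log2 RMA level over 6 arrays (large points, brightest probe set of a gene; black rim, adjusted p under 0.05). The probe sets of Hsd17b7, Lss and Stard4 all lie above 0 with a rim, while those of Hmgcs1 and Srebf2 stay near 0 and those of Mvk lie on either side.

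Mvd and Msmo1, with the largest changes of the set, both lie on chromosome 8, whose genes read higher in the knockout as a whole: 33.6% of all its genes tested were called higher. Of 508 genes of chromosome 8 above the median level, 56.9% were called higher, with a median log2 change of 0.26, against 19.4% and -0.03 for 8588 genes of other chromosomes. The change of Msmo1 was 1.10 above that chromosome 8 median and ranked at position 6 of the 508, and that of Mvd was 0.77 above it, at position 23. Without these 2 genes, 15 of 24 members rose and 1 fell, with a median log2 change of 0.35. The part of the chromosome in the changes of Msmo1 and Mvd was not tested.

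Neighbouring parts of sterol and SREBP biology were followed in 5 lists of other genes, also chosen with earlier results of these data known. Of 57 measured genes in these lists, 22 rose and 8 fell (38.6% and 14.0%), with a median log2 change of 0.09. Over all genes 12.5% were called higher and 17.5% lower, and among genes above the median level 21.5% and 26.5%. Of 10 genes that process SREBP or act beside it, 4 rose and 2 fell. Mbtps1, the Golgi protease that makes the first cut in SREBP, rose by 0.58 and lies on chromosome 8. Its change was 0.32 above the median of the 508 chromosome 8 genes above the median level, at position 104. The factor Sp1 rose by 0.51. Nfyb, a subunit of the NF-Y complex that binds CCAAT, fell by 0.40 (limma, adjusted p = 0.00349). Erlin1, a membrane protein of sterol-regulated degradation, rose by 0.31 on its brightest probe set, but its probe sets averaged to -0.02.

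Of 13 genes of sterol traffic, storage and efflux, 5 rose and 2 fell. Tmem97, an SREBP target in sterol handling, rose from 8.10 ± 0.10 to 8.73 ± 0.09 (SD, n = 3 each; limma, adjusted p = 0.00134), the lysosomal lipase Lipa rose by 0.57 and the lipoprotein receptor Scarb1 by 0.49. Mylip, a ubiquitin ligase that removes lipoprotein receptors, fell by 0.47 (limma, adjusted p = 0.00101). The sterol exporters went both ways: Abca1 fell by 0.41 and Abcg1 rose by 0.40 (limma, adjusted p = 0.000749 and 0.00390). Of 13 measured genes that draw on the isoprenoid branch, 1 rose and 3 fell (7.69% and 23.1%), with a median of -0.01. These shares stand beside 12.5% and 17.5% of all genes, and 21.5% and 26.5% of genes above the median level. Coq2, which attaches the side chain of ubiquinone, fell from 9.23 ± 0.01 to 8.53 ± 0.02 (SD, n = 3 each; limma, adjusted p = 0.000132). The farnesyltransferase subunit Fntb fell by 0.36 and the dolichol kinase Dolk by 0.31. Fnta, the partner subunit of Fntb, rose by 0.20 and lies on chromosome 8. Its change was below the median of 0.26 for chromosome 8 genes above the median level. The Fnta call was lost without wild-type replicate 1 or 3 or any knockout replicate (limma, adjusted p 0.100 to 0.131).

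Of 14 fatty acid genes driven by SREBP, 7 rose and 1 fell, with a median of 0.17. These shares of 50% and 7.14% stand beside 21.5% higher and 26.5% lower among all genes above the median level. The desaturases Fads1 and Scd1 rose by 0.73 and 0.72, Mid1ip1, which activates acetyl-CoA carboxylase, by 0.51 and the phosphatidate phosphatase Lpin1 by 0.44. Fasn rose by only 0.18, and Elovl6, the gene called lower, fell by 0.37 (limma, adjusted p = 0.0179 and 0.00272). The other 6 genes were not called, among them Acly (0.05), Acaca (0.03) and Elovl5 (-0.03). Of 7 redox partners and enzymes of acetyl-CoA side reactions, 5 rose (71.4%) and 0 fell by limma (0 also at an unadjusted p under 0.05). The same 21.5% and 26.5% of genes above the median level stand beside these counts. Cyb5b, a cytochrome b5 on chromosome 8 that hands electrons to oxidases and desaturases, went from 9.02 ± 0.05 to 10.23 ± 0.03 (SD, n = 3 each), a rise of 1.21 on the log2 scale. That change was 0.95 above the median of the 508 chromosome 8 genes above the median level, at position 10. Aacs, which makes acetoacetyl-CoA in the cytosol, rose by 0.33. The small rises of Cyb5a (0.21) and of the mitochondrial thiolase Acat1 (0.20) were lost when certain arrays were left out. For Cyb5a these were wild-type replicates 1 and 2 and knockout replicate 3 (limma, adjusted p 0.0553 to 0.0745). For Acat1 they were wild-type replicates 1 and 2 and all knockout replicates (limma, adjusted p 0.0516 to 0.0644), and its averaged probe sets read 0.10.

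**Figure D4:**
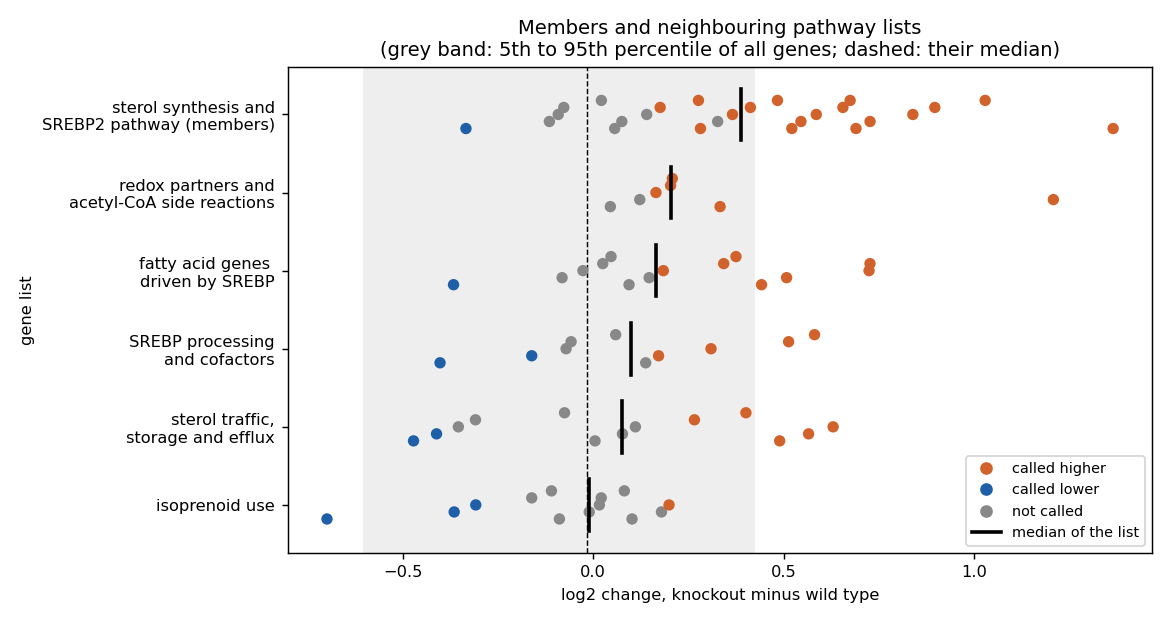
Log2 change (knockout minus wild type) of the 26 measured genes and of 5 lists of neighbouring genes, 1 point per gene, with the list median as a bar. The band spans the 5th to 95th percentile of all genes (-0.60 to 0.42), and 12 of the 26 members lie above it.

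Markers of other cell types were read in the same arrays, and their counts stand beside 12.5% higher and 17.5% lower over all genes tested. Endoderm markers averaged 5.45 to 5.54 per wild-type array and 4.63 to 4.79 per knockout array, and of 10 such genes 5 fell and 0 rose by limma (0 also at an unadjusted p under 0.05). Fibroblast markers, which would report feeder cells, averaged 4.20 to 4.26 and 4.04 to 4.16, with 1 higher and 2 lower of 10, shares near that background. Neural markers averaged 4.48 to 4.55 and 4.60 to 4.66, with 2 higher and 1 lower of 7. Of the 2 higher, Tubb3 rose by 0.76 and lies on chromosome 8, where 33.6% of all genes tested were called higher. Trophectoderm markers averaged 6.03 to 6.12 and 5.96 to 6.07, with 1 higher and 1 lower of 7, also near the background over all genes. Stem cell markers averaged 11.87 to 11.90 and 11.55 to 11.59. The part of these shifts in the sterol genes was not tested, and in bulk RNA a change in the share of cells cannot be told apart from a change per cell.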

How the data were processed

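The deposited table holds log2 levels of 45101 probe sets on 6 arrays. Per the submitters' processing notes, the authors used RMA and Partek 6.5, with settings not given in the sources used here. That the scale is log2 follows from the range of values, and no recentring was applied. The 64 control probe sets and those with several (932) or no (9160) symbols were left out. For each of 18193 genes the brightest probe set, by its 6-array mean, was kept. Genotypes were compared by lmFit and eBayes of limma 3.58.1, run in R 4.3.3 (two-sided, Benjamini-Hochberg adjustment over all genes, threshold 0.05, no replicate block). All members are named, with Sirt1 and, of each other list, up to 4 called genes with the largest change. A few further genes of the sterol traffic and fatty acid lists are named for contrast. Chromosomes and promoter windows are from RefSeq (GRCm38.p6), and the windows were read by symbol. The alternatives changed normalisation, centring, the filter on dim genes, the probe set rule, the variance model, the replicate block, the arrays, the features tested, the threshold and the size of change. The number of arrays limits precision. The members and lists were chosen with earlier results of these data known. Like-numbered arrays deviated together at correlations of 0.05, -0.09 and 0.20 across genes, which does not pair them.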

Additional observations from a re-analysis of the deposited data

How the results depend on the processing

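The count of 17 higher members lay between 15 and 19 under every alternative but a minimum change of 1.5-fold, which left 9 higher and 0 lower. Leaving out 1 array at a time gave 15 to 16 higher members and 1 to 2 lower ones, the 2 without knockout replicate 1, where Mvk joined Insig2. With probe sets averaged 15 were higher and 0 lower, and with an intensity trend and robust variances 19 were higher and 2 lower, Lbr joining Insig2. Ggps1 and Nsdhl were the members gained there and without the dimmest 40% of genes, and Ggps1 with quantile normalisation repeated. The replicate numbers were not taken to pair the arrays. With the replicate block 16 members rose and 1 fell, and Fdft1 lost its call (adjusted p = 0.0739). Fdft1 was also lost with arrays centred on their medians (0.0539), with averaged probe sets (0.120) and with all probe sets tested (0.0525), and Scap with averaged probe sets (0.0912). For Fdft1 and Scap the cause was not tested. Over all genes, 2270 higher and 3192 lower became 1347 and 2009 at an adjusted p under 0.01, 433 and 942 with the minimum change, and 4069 higher with all probe sets tested as features. Of the other pathway genes, 22 higher and 8 lower became 4 and 1 with the minimum change, and 5 were lower with averaged probe sets. Leaving out 1 array at a time gave 16 to 19 higher and 7 to 8 lower there. The sign turned, without a call, for Mvk (0.0798) and Erlin1 (-0.0183) with averaged probe sets. The change of Npc1, with arrays left out in turn, ran from -0.0150 without replicate 2 of the wild type to 0.0550 without its replicate 3, and was -0.0097 without replicate 2 of the knockout. Depth cannot be given for arrays, and 3 arrays per genotype limit small changes.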
